A study of Homo sapiens with 18 samples.

Results

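KANSL1 and SFMBT2 are the 2 genes followed here, out of 4470 genes that hold a site in either of the 2 deposited site lists. They were chosen by their numbers of sites in the list that the submitters named HCS, where both rank near the top, so these numbers are a description and were not tested. All entries carrying either gene symbol were taken, and they reduced to 48 distinct U-tracts of 15024 in the whole series, with 22 in KANSL1 and 26 in SFMBT2. A U-tract is a run of at least 5 uridines. Each entry pairs a U-tract with an RRACH motif (R is A or G, H is A, C or U), the short consensus in which N6-methyladenosine (m6A) is written, at a listed distance of no more than 50 nt.

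The study used HEK293T cells, a human embryonic kidney line, and its 18 samples form 9 groups of 2. PARCLIP-MeRIP on wild type cells, in which crosslinked hnRNP C RNA is also enriched with an m6A antibody, has an IP group and an Input group. PAR-CLIP of hnRNP C alone covers METTL3 Knockdown, METTL14 Knockdown and wild type control cells, and RNA-seq covers HNRNPC Knockdown, METTL3 Knockdown, METTL14 Knockdown and wild type control cells. How the knockdowns were made is not given in the labels. The first list, called the switch list here, gives hnRNP C switch sites from PARCLIP-MeRIP, and the HCS list gives a smaller set with exon or intron for each site. Neither list holds a value per sample, so the read depth is unknown and no group could be set against another. Intervals below are exact binomial 95% intervals (for medians, from order statistics) and cover counting error only. Sites of a gene share a transcript and are not replicates.

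hnRNP C is an abundant nuclear protein that binds runs of uridines, many of them in introns, and shapes splicing there. The enzyme that writes m6A is built from METTL3 and METTL14. The methyl group weakens base pairing, so a methylated RRACH motif can leave a nearby U-tract unpaired and open to hnRNP C, which is what an m6A switch refers to. KANSL1 is the scaffold of the NSL complex, in which the acetyltransferase KAT8 acetylates histones, and loss of a copy causes Koolen-de Vries syndrome. SFMBT2 is a Polycomb-group protein with MBT domains, which read methylated lysines on histones. The related Drosophila protein Sfmbt pairs with the DNA-binding factor Pho, whose human counterpart is YY1. In mouse, Sfmbt2 is imprinted and an intron of it holds a large miRNA cluster.

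KANSL1 held 20 U-tracts in the switch list and 7 in the HCS list, against medians of 2 per gene with a switch site and 1 per gene with an HCS site. SFMBT2 held 21 and 8. By switch sites SFMBT2 ranked 27 and KANSL1 ranked 29 among all genes, and by HCS sites SFMBT2 tied at rank 2 and KANSL1 at rank 5. The ranks by HCS sites rest on small steps. PTBP2 led with 9, and PITPNB and POLA1 held 8 like SFMBT2. LARP4B and UBE3C held 7 like KANSL1, and the next 11 genes held 6. Of the 4188 genes that hold a switch site, 36.6% also hold an HCS site. This share and the medians above are not matched for the number of switch sites. Among the 75 genes with 15 to 26 switch sites, which include both, 70 held an HCS site. Their median was 3 HCS sites and the highest number was 8. SFMBT2 had more HCS sites than 73 of these genes and KANSL1 had more than 70 of them.

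**Figure D1:**
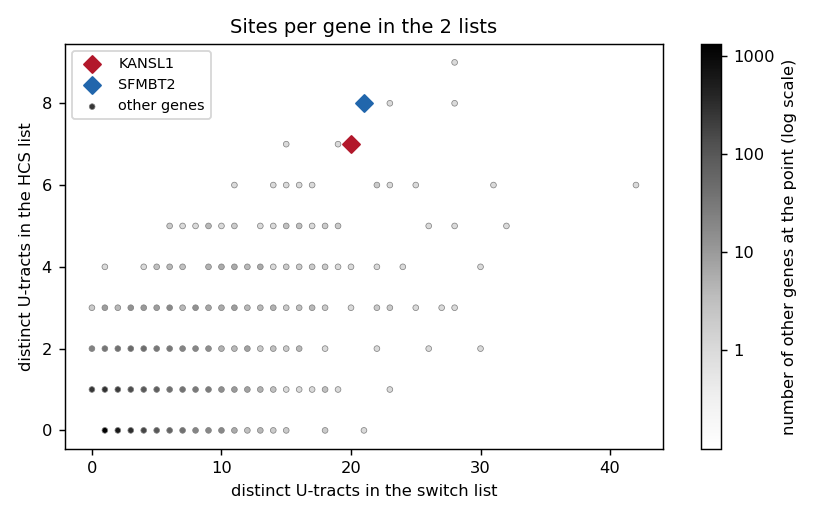
Distinct U-tracts per gene in the switch list (x axis) and in the HCS list (y axis). Diamonds are KANSL1 (20 and 7) and SFMBT2 (21 and 8), and grey points are the other genes, darker where more genes share a point. Both genes lie near the top of the plot and in the middle of its width.

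By their numbers of sites in the 2 lists, the genes nearest to KANSL1 were the ubiquitin ligase UBE3C (19 switch and 7 HCS sites), the RNA-binding protein LARP4B (15 and 7) and the phosphatase subunit PPP4R2 (22 and 6), with SFMBT2 itself left out. PPP6R3, a further phosphatase subunit, also held 22 and 6 and came after PPP4R2 by alphabet only. Those nearest to SFMBT2 were the phosphatidylinositol transfer protein PITPNB (23 and 8), the DNA polymerase alpha subunit POLA1 (28 and 8) and again UBE3C. Here KANSL1 was left out, which by its numbers lies nearer to SFMBT2 than UBE3C does. Likeness was the same number of HCS sites if any, then the smallest difference in switch sites, over the 2 lists. The HCS sites also present in the switch list numbered 1 in UBE3C, 3 in LARP4B, 6 in PPP4R2 and 4 in PPP6R3, and 5 in PITPNB and 2 in POLA1.

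The overlap of the lists had wide intervals in both genes. In KANSL1, 5 of the 7 HCS U-tracts were also in the switch list (71.4%, interval 29.0% to 96.3%), and they made up 25% of its switch sites (interval 8.66% to 49.1%). In SFMBT2 it was 3 of 8 (37.5%, interval 8.52% to 75.5%), or 14.3% of its switch sites (interval 3.05% to 36.3%). Over all HCS sites 40.1% were in the switch list, and over all switch sites 8.24% were in the HCS list. As shares of the HCS sites, the intervals of the 2 genes overlap and both hold the share over all HCS sites. As shares of the switch sites, the values of both genes are raised by their choice for many HCS sites, so nothing is read from them.

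KANSL1 lies on the minus strand of chromosome 17, and the positions that follow are hg19 as listed. The first HCS site along the transcript, at 44288363 to 44288367, is an intronic tract of 5 uridines whose motif ends 3 nt upstream of it. It was not in the switch list, and the nearest switch site of the gene was 10.5 kb away. The next, at 44274593 to 44274597, is an intronic tract of 5 uridines with its motif 11 nt downstream, and it was in both lists. Both sites lie before the start of the 2 shorter KANSL1 transcripts, which begin 32.5 kb and 32.6 kb into the longest one.

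The third HCS site of KANSL1, at 44248535 to 44248539, was the exonic one. Its 5 uridines are followed after 5 nt by the motif at 44248525 to 44248529, and it was in both lists. Exonic sites thus made up 1 of the 7 KANSL1 HCS sites and 0 of the 8 SFMBT2 HCS sites, beside 17.0% over all HCS sites. Of the 18 genes with at least 6 HCS sites, 10 had no exonic one, so this is not particular to SFMBT2. At 44242317 to 44242321 an intronic tract of 5 uridines, also in both lists, has its motif 11 nt upstream. These sites fall in the part of the gene where listed sites are densest.

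Among the remaining KANSL1 HCS sites are the 2 in which motif and tract touch. At 44199612 to 44199618 the motif runs directly into 7 uridines, with a gap of 0 nt. At 44156529 to 44156534 it runs directly into 6 uridines in the same way. Both sites are intronic and in both lists. The tract of 5 uridines at 44187469 to 44187473, with its motif 12 nt downstream, was in the HCS list only, 3.51 kb from the nearest switch site.

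SFMBT2 lies on the minus strand of chromosome 10, and its 8 HCS sites were intronic and have the motif downstream. The 3 that were in both lists are those nearest the transcript start. They are tracts of 5 uridines at 7407607 to 7407611, 7403438 to 7403442 and 7374552 to 7374556, with gaps of 25, 34 and 23 nt. They are spread over 33.06 kb, whereas all SFMBT2 HCS sites span 186.0 kb.

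The 5 SFMBT2 sites in the HCS list alone lie farther along the transcript. A pair of 5-uridine tracts at 7339103 to 7339107 and 7339094 to 7339098 is separated by 4 nt and shares the motif at 7339082 to 7339086, with gaps of 16 and 7 nt. The tract of 5 uridines at 7278603 to 7278607 has a gap of 19 nt. The tract of 7 uridines at 7234931 to 7234937, the only SFMBT2 HCS tract longer than 5 nt, has a gap of 42 nt. The last site, at 7221567 to 7221571, has a gap of 4 nt and lies beyond the last switch site, 15.5 kb from it. None of the motifs of these 5 tracts, nor those of the 2 KANSL1 tracts in the HCS list alone, was in the switch list with another tract.

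**Figure D2:**
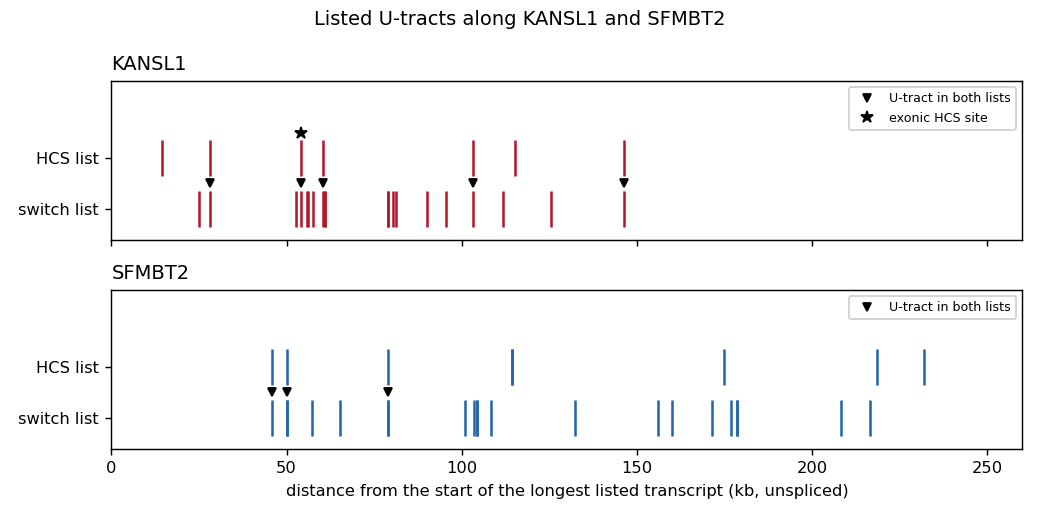
Listed U-tracts along the longest listed transcript of KANSL1 (top) and SFMBT2 (bottom), in kb from its start with introns included. Each line is a U-tract in the HCS list or the switch list, triangles mark U-tracts in both lists and the star marks the exonic HCS site. In SFMBT2 no site lies in the first 45 kb and the 3 shared sites come first, while in KANSL1 the 5 shared sites run from 28.1 to 146.2 kb.

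Positions along the transcript are genomic distances from its start, introns included. In KANSL1 the switch sites ran from 24.9 to 146.2 kb and the HCS sites from 14.4 to 146.2 kb. In SFMBT2 the switch sites ran from 45.8 to 216.4 kb and the HCS sites from 45.8 to 231.9 kb. Neither gene therefore held a listed site in its first 14 kb. In SFMBT2 the 21 switch sites were listed under both transcripts, the shorter of which begins 2.145 kb into the longer, before every site. In KANSL1 18 of the 20 were listed under 3 transcripts. The other 2, at 44277810 to 44277815 and 44274593 to 44274597, were listed under the longest alone. They lie before the start of the shorter transcripts, so only the longest could list them. The HCS list names the longest transcript of each gene only.

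KANSL1 had the denser sites. Its densest 10 kb held 8 of the 20 switch sites (40%) within 8.195 kb, from 52.8 to 61.0 kb along the transcript, and 2 of those 8 were HCS sites. The densest 10 kb of SFMBT2 held 5 of 21 (23.8%), from 100.9 to 108.3 kb, and 0 of them were HCS sites. For scale, the 75 genes with 15 to 26 switch sites were used, which include both. Their densest 10 kb held 33.3% of a gene's switch sites in the median, and SFMBT2 had a lower share than 64 of them. In KANSL1 the share was higher than in 46 of them. The span from the first to the last switch site was 121.3 kb in KANSL1 and 170.6 kb in SFMBT2, against a median of 80.6 kb.

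Spacing between neighbours differed in the same way, with medians of 2.985 kb in KANSL1 and 4.76 kb in SFMBT2 for the switch sites. The longest stretches without a switch site between neighbours were 24.7 kb and 29.7 kb. HCS sites had median spacings of 19.9 kb in KANSL1 and 28.9 kb in SFMBT2. They are fewer over a similar span, so wider spacing comes with their number and nothing is read from it.

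Nearly all switch tracts of SFMBT2 were of the shortest length listed. In SFMBT2, 20 of 21 switch tracts were exactly 5 nt long (95.2%, interval 76.2% to 99.9%), and the exception, at 7274988 to 7274994, was 7 nt. In KANSL1 it was 11 of 20 (55%, interval 31.5% to 76.9%). The share over all switch sites was 63.7%. The interval of SFMBT2 leaves out this share and that of KANSL1 holds it. Each interval treats the tracts of a gene as independent draws, although 6 of the 21 SFMBT2 tracts lie on 3 motifs. Tract length was also 1 of several measures looked at, so this is a description and not a test. KANSL1 held 3 switch tracts of 8 nt or more (15%) and SFMBT2 held 0, beside 9.89% of the switch sites of other genes. Those of KANSL1 were 11 uridines at 44212633 to 44212643, 10 at 44223818 to 44223827 and 9 at 44249911 to 44249919, with downstream gaps of 4, 32 and 45 nt. None of these 3 long tracts was in the HCS list, which holds 8.24% of all switch sites.

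Among the 75 genes with 15 to 26 switch sites, the share of 5-nt tracts in SFMBT2 was the highest, above a median of 66.7% and a lowest value of 33.3%. EHMT1 came next with 89.5% of its 19 switch sites, so the lead of SFMBT2 was small. KANSL1 was lower than 56 of the 75 genes on this measure. These are places in an order over several measures looked at, with no test behind them. In the HCS list the shares of 5-nt tracts were 5 of 7 in KANSL1 and 7 of 8 in SFMBT2, beside 66.7% over all HCS sites.

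**Figure D3:**
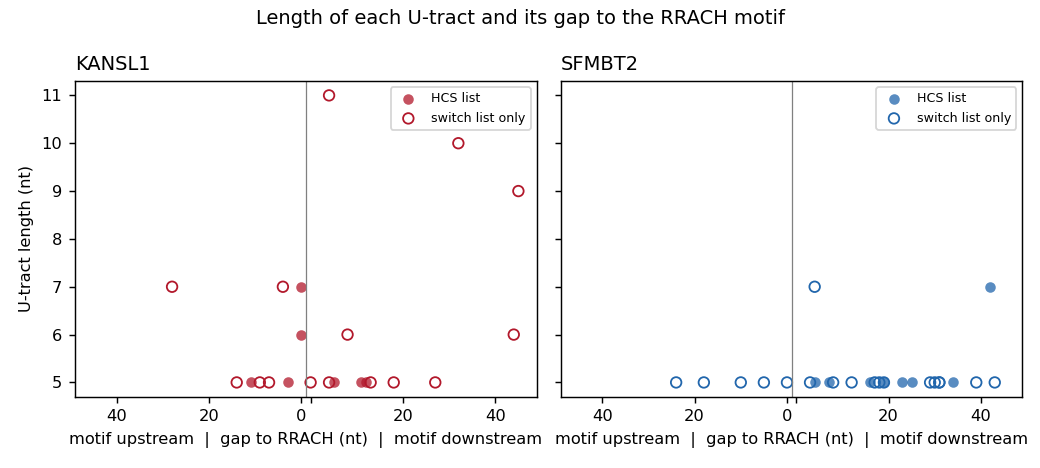
Length of each U-tract (y axis, nt) against the gap to its RRACH motif (x axis, nt, motif upstream to the left and downstream to the right). Filled points are in the HCS list and open points in the switch list alone, and the sides are set 1 nt off the centre line so that gaps of 0 stay apart. The KANSL1 HCS points lie within 12 nt of the centre on both sides, and the SFMBT2 HCS points lie on the right only, from 4 to 42 nt.

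All 8 SFMBT2 HCS sites had their motif downstream of the tract (interval 63.1% to 100%), with the pair at 7339082 counted once for each tract. In KANSL1 it was 3 of 7 (42.9%, interval 9.90% to 81.6%), and over all HCS pairs of tract and motif 55.9%. The intervals of the 2 genes overlap. That of SFMBT2 leaves out the share over all pairs, though it treats each site as an independent draw and the value was seen before SFMBT2 was singled out for it. Of the 18 genes with at least 6 HCS sites, SFMBT2 was the 1 with every motif downstream, and 0 had every motif upstream. In the switch list 16 of 21 SFMBT2 motifs were downstream (76.2%, interval 52.8% to 91.8%) and 12 of 20 in KANSL1 (60%), beside 59.7% over all switch pairs.

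The switch sites of SFMBT2 outside the HCS list did not all have the motif downstream. Of those 18, 13 had the motif downstream and 5 upstream. An example is the tract at 7245304 to 7245308, whose motif runs directly into it. In KANSL1 the 15 switch sites outside the HCS list comprised 10 with the motif downstream and 5 upstream.

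In KANSL1 the 7 HCS sites had a median gap of 5 nt (interval 0 to 12) and none above 12 nt. As listed distance, which counts an upstream motif, the median was 8 nt. Among the 18 genes with at least 6 HCS sites, the largest gap was lowest in KANSL1. It was little higher in NAP1L4 (14 nt, median 6 nt) and ANKRD11 (18 nt, median 7 nt), so short gaps are not particular to KANSL1. The 8 HCS sites of SFMBT2 had a median of 21 nt (interval 4 to 42), beside 11 nt over the HCS sites of all other genes. The intervals of the 2 genes overlap, and that of each holds the median of the other genes.

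In the switch list the median gap was 10 nt in KANSL1 (interval 4 to 18) and 19 nt in SFMBT2 (interval 10 to 30), beside 17 nt over the other genes. Of the genes with 15 to 26 switch sites, 69 had a higher median gap than KANSL1 and 2 a lower one. SFMBT2 stood in the middle of that order, with 32 higher and 38 lower. Gaps of at most 10 nt made up 10 of 20 KANSL1 and 6 of 21 SFMBT2 switch sites, beside 34.4% over all switch pairs. In the HCS list it was 4 of 7 in KANSL1 and 2 of 8 in SFMBT2, beside 48.6%.

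Within KANSL1 the 15 switch sites outside the HCS list had a median gap of 13 nt and reached 45 nt, while the 7 HCS sites stayed at or under 12 nt. A largest gap depends on the number of sites. Over the other genes the median gap was also lower in the HCS list (11 nt) than in the switch list (17 nt), so this direction is not particular to KANSL1. Within SFMBT2 the median was 18 nt outside the HCS list and 21 nt for the 8 HCS sites, with 25 nt for the 3 in both lists and 16 nt for the 5 in the HCS list alone. In KANSL1 3 of 20 switch sites (15%) had tract and motif touching and in SFMBT2 1 of 21 (4.76%), beside 5.77% touching or overlapping among those of other genes. Besides both HCS sites described above, this was 44221561 to 44221565, where 5 uridines run directly into the motif. In SFMBT2 it was the upstream case at 7245304.

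**Figure D4:**
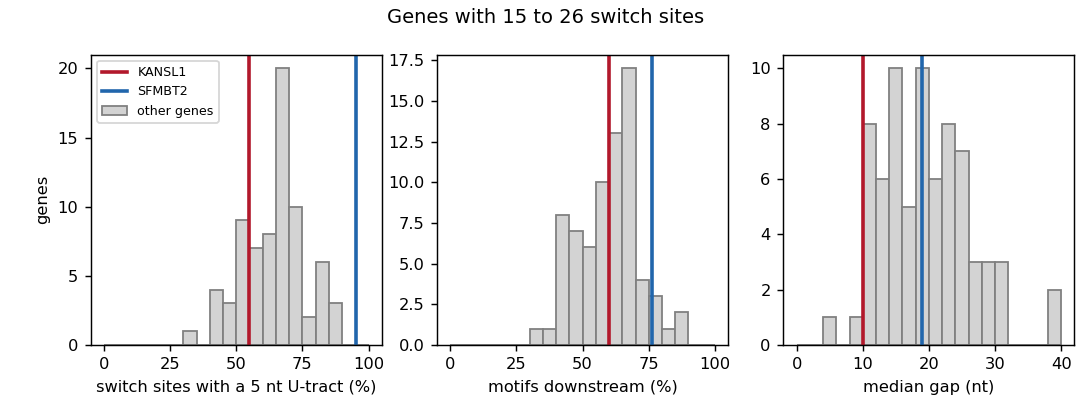
The 75 genes with 15 to 26 switch sites by the share of 5-nt U-tracts (left, %), the share of motifs downstream (middle, %) and the median gap (right, nt) of their switch sites. Lines are KANSL1 and SFMBT2 and grey bars count the other genes. SFMBT2 (95.2%) lies right of every bar on the left, and KANSL1 (10 nt) lies at the low end on the right.

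Some motifs were listed with more than 1 U-tract, so neighbouring sites need not be separate events. In SFMBT2 6 of the 21 switch tracts (28.6%) lay on 3 such motifs and in KANSL1 2 of 20 (10%) on 1, beside 27.6% of the switch sites of other genes. The motif at 7403399 to 7403403 had tracts of 5 uridines 18 and 34 nt upstream of it in the switch list, and only the farther tract was in the HCS list. The motif at 7348983 to 7348987 had tracts at gaps of 12 and 39 nt, and that at 7274979 to 7274983 had tracts at 4 and 43 nt. In KANSL1 the motif at 44241760 to 44241764 was the only one, followed by tracts of 7 uridines at gaps of 4 and 28 nt. Counted as motifs, KANSL1 held 19 switch sites and SFMBT2 held 18.

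The other genes of the complexes were taken from lists of the NSL and MSL complexes, MBT-domain proteins, Polycomb complexes and further acetyltransferases, 74 genes in all. Of these, 40 held a switch site and 27 an HCS site. Among the 40 with a switch site, 24 (60%) also held an HCS site, beside 36.6% of all genes with a switch site. These genes had a median of 2.5 switch sites, beside 2 over all genes. The shares are not matched for the number of switch sites, and whether that number matters was not tested. The lists name only genes with a site, so a gene with none cannot be told apart from a gene that is not expressed. For the same reason, the counts of genes per complex below have no share over all genes beside them. The highest number of HCS sites among the 74 was 3.

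Of the partners of KANSL1 in the NSL complex, 4 of 9 held a switch site and 3 an HCS site. Among the 4 with a switch site, 2 (50%) also held an HCS site, beside 36.6% of all genes with a switch site. The glycosyltransferase OGT, which adds a sugar to nuclear proteins, held 12 switch sites and 1 HCS site, which was exonic and in both lists. KANSL3, another subunit, held 3 and 1. The reader protein PHF20L1 held 0 switch sites and 1 HCS site. The catalytic subunit KAT8 was in neither list. Of the MSL complex, which also contains KAT8, only MSL2, its ubiquitin ligase subunit, was listed, with 10 switch sites and 2 HCS sites.

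Of the 10 MBT-domain relatives of SFMBT2, 5 held a switch site and 5 an HCS site, with few sites each. Among the 5 with a switch site, 4 (80%) also held an HCS site, beside 36.6% of all genes with a switch site. SFMBT1, its closest relative, held 1 switch site and 1 HCS site, which were different U-tracts. MBTD1 held 1 and 2, SCMH1 held 2 and 1, and SCML1 held 1 and 1. L3MBTL2 held 0 and 1. These 10 genes together held 6 switch sites and 6 HCS sites.

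Of 25 genes of the YY1 and Polycomb repressive complex 1 list, 12 held a switch site and 6 an HCS site. Among the 12 with a switch site, 5 (41.7%) also held an HCS site, beside 36.6% of all genes with a switch site. AUTS2, which joins a variant of that complex, held 9 switch sites and 2 HCS sites, and the variant subunit RYBP held 4 and 2. PHC3 held 8 and 1, the ubiquitin ligase RNF2 and the DNA-binding protein MGA held 2 and 1 each, and YAF2 held 0 and 1. YY1 held 6 switch sites and 0 HCS sites. Polycomb repressive complex 2 methylates histones, and 8 of its 12 genes held a switch site and 6 an HCS site. Those 6 were all among the 8 with a switch site (75%, beside the same 36.6%). The 8 genes had a median of 7.5 switch sites, beside 2 over all genes, so these shares are not matched either and were not tested. Its core subunit SUZ12 held 17 and 3, the histone-binding RBBP4 held 16 and 2, and the methyltransferase EZH2 held 12 and 2. JARID2 held 10 and 1, and MTF2 and RBBP7 held 3 and 1 each. SUZ12 came nearest to KANSL1 and SFMBT2 by switch sites.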

How the data were processed

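The deposited lists give positions, U-tract lengths and distances in nt, per the file headers, and hold no counts or enrichments per sample. The submitters' processing notes name Bowtie 1.0.0, Trimmomatic and the hg19 build. The calling of sites, the combining of replicates and the treatment of reads matching several places are not stated there or in the headers. This matters for KANSL1, parts of which are duplicated in some human haplotypes, and its effect was not tested.

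The 17352 switch and 2798 HCS entries were reduced to 13378 and 2748 distinct U-tracts, after 3 copies on the Y chromosome were removed. Missing symbols were looked up by transcript in a GRCh38 RefSeq table, used for names only, which found 753 of 756 and 4 of 4. Gaps are edge to edge and were computed from chromosome positions. The listed distance to an upstream motif includes the 5 nt of the motif. Code for gaps and sides was tested on simulated data.

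Samples were grouped by title, and as the lists carry no sample values there was no comparison between groups and no test. Members, gene lists and measures were chosen with earlier results of these data known. The genes named are KANSL1, SFMBT2, the 3 nearest by numbers of sites, and up to 8 per gene list with the most HCS sites. YY1 and KAT8 were added after their values were seen, and so were NAP1L4 and ANKRD11 for their gaps. NAP1L4 and PPP4R2 were also named for their motif sides, and EHMT1 for its tract lengths, after these were seen. The 75 genes used for scale and the 18 with the most HCS sites were also chosen after the data were seen. No site sequence was printed, since the hg19 sequence was not used here. Computations ran in Python 3.11.15 with pandas 2.3.3, numpy 2.4.6 and scipy 1.17.1, and figures in matplotlib 3.10.9.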

Additional observations from a re-analysis of the deposited data

How the results depend on the processing

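Of 43 alternative values over 19 results, 5 moved and 38 did not. A count moved if it changed by over 1.5 times, and a share or median if it left its own interval. Some of the 38 could not move by construction, as given below. Wide intervals also left shares and medians little room to move, so the tally is not a measure of robustness. With the listed distance in place of the gap, the KANSL1 medians were 8 nt in the HCS list and 12.5 nt in the switch list (gaps of 5 and 10 nt), and those of SFMBT2 were 21 and 23 nt (gaps of 21 and 19 nt). The KANSL1 HCS median thus changed by over 1.5 times within its wide interval. With U-tracts of at least 6 nt only, KANSL1 held 9 switch and 2 HCS sites and SFMBT2 held 1 and 1. With a listed distance of at most 25 nt, SFMBT2 held 13 switch sites. By construction these settings only remove sites. Counting motifs, merging tracts within 100 nt, leaving out tracts under other symbols (there were 0) and other definitions of a shared site changed no number by over 1.5 times. Each tract of the 2 genes had 1 motif, so taking the nearest motif, or 1 entry per pair of tract and motif, could change nothing. Without looked-up symbols, 42 of the 74 genes of the gene lists held a site, against 43 with them (E2F6 was added). No paired analysis was possible because the lists hold no values per sample, and leaving out replicates was not possible either. Depth is unknown, and which sites it kept off the lists could not be measured.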

Other observations

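Among 15 further histone acetyltransferases and their partners, 10 held a switch site and 6 an HCS site. These 6 were all among the 10 with a switch site (60%, beside 36.6% of all genes with a switch site). The 10 genes had a median of 4 switch sites, beside 2 over all genes, so these shares are not matched and were not tested. KAT6A, a relative of KAT8, held 4 switch sites and 2 HCS sites. The co-activator CREBBP held 10 and 1, and its paralog EP300 held 2 and 1, with the HCS site of EP300 exonic and in both lists. ING5 held 5 and 1, TRRAP held 4 and 1, and KAT6B held 1 and 1.

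The lists number motif positions along the transcript differently. In each of the 17348 switch entries kept, the transcript position of the motif was 1 nt lower than the U-tract position of the same entry implies, and in each of the 2798 HCS entries it was not. The chromosome positions show no such shift for the motifs of KANSL1 and SFMBT2 that are in both lists, and the gaps given above use chromosome positions.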
